A study of Mus musculus with 8 samples.

Results

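The endoplasmic reticulum (ER) is where secreted and membrane proteins are folded, and 35 mouse genes that encode its chaperones, folding enzymes, import and degradation machinery and the sensors and factors of the unfolded protein response were followed here in sorted regulatory T (Treg) cells. They were taken from a fixed list of symbols, and all 35 were found among the 24108 named genes of the count table. All 35 also passed the filter on low counts, and 34 had reads in every library.

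The study sorted Foxp3-expressing CD4 T cells from mesenteric lymph nodes of mice with 1 labelled genotype, which joins the alleles Foxp3DTR-GFP/Thy1.1, CD4CreER/wt and R26lsl-tdTomato/wt. Foxp3 is the transcription factor gene that defines Treg cells, and the genotype carries a Foxp3 reporter with GFP and the diphtheria toxin receptor beside one with Thy1.1. Every group had been raised on AVNM, which is not spelled out in the labels, and an amino acid-defined diet, and then received tamoxifen, which lets the Cre of CD4-expressing cells switch on tdTomato, and diphtheria toxin over about 3 weeks. After this period the mice were moved to chow and given SPF fecal microbiota, and cells were double sorted on day 12. The groups were tdTomato+GFP+, tdTomato-GFP+, tdTomato+Thy1.1+ and tdTomato-Thy1.1+ cells, with 2 libraries each. By the design text, tdTomato marks CD4 T cells outside the thymus that lacked Foxp3 when they were labelled. On that reading, tdTomato+GFP+ cells can have gained Foxp3 later. Toxin sensitivity is named for the GFP allele alone, so Thy1.1+ cells may have passed through the toxin treatment. Cells with tdTomato and Thy1.1 may therefore have expressed Foxp3 already when they were labelled. Age, sex and the pooling of animals are not given. The unit used throughout is CPM, the count of a gene scaled to a common library total by TMM factors, and the libraries held 38085686 to 47908198 counts each. Cd3e, Cd4 and Foxp3 were read in all 8 libraries, at no less than 965, 301 and 126 CPM.

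Proteins enter the ER through the Sec61 channel, fold with the help of the Hsp70 chaperone BiP, the Hsp90 homologue endoplasmin, the lectin chaperones calnexin and calreticulin and the protein disulfide isomerases, and are drawn out for degradation if they fail. When unfolded protein accumulates, the membrane sensors IRE1, PERK and ATF6 are freed from BiP: IRE1 splices Xbp1 mRNA, ATF6 is cut to release a transcription factor, and PERK slows translation while favouring that of Atf4. XBP1 and ATF6 raise chaperone, import and degradation genes, ATF4 raises amino acid and stress genes, and in lymphocytes this programme is best known from plasma cells, which secrete large amounts of antibody. XBP1 and ATF6 act at promoters through the ER stress response element, which joins a CCAAT box, bound by NF-Y, to the half-site CCACG.

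Promoter sequence was not used in the choice of the 35 genes, although several of them are textbook targets of this element. RefSeq promoters of build GRCm38.p6, from 250 bases before to 50 bases after a start site, were at hand for 30 of them, and each of 4 elements was searched on both strands. The ER stress response element, spelled CCAAT, any 9 bases and CCACG, was found in 8 of 30 genes (26.7%) and in 39 of 32851 promoters of all genes (0.119%). These 8 genes were Hspa5, Hsp90b1, Calr, Canx, Creld2, Pdia6, Dnajc3 and Syvn1, and Hsp90b1 had 2 copies. The copies are printed below because more of the genes share this element than any of the other 3. Each line runs 5′ to 3′ along the strand of the gene, with 20 bases on either side, and capitals mark the 2 fixed parts, in either orientation.
Hspa5 (chr2:34772005-34772063, plus strand): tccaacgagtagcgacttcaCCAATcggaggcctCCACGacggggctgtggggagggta
Calr (chr8:84847055-84847113, minus strand): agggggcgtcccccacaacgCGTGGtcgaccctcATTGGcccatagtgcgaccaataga
Hsp90b1 (chr10:86705618-86705676, minus strand): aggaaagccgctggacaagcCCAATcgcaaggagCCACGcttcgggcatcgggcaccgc
Hsp90b1 (chr10:86705513-86705571, minus strand): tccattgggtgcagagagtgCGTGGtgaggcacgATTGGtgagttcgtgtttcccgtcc
Canx (chr11:50325780-50325838, minus strand): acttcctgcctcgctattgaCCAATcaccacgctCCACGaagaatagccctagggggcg
Pdia6 (chr12:17266471-17266529, plus strand): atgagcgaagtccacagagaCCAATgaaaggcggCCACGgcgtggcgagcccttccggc
Dnajc3 (chr14:118937807-118937865, plus strand): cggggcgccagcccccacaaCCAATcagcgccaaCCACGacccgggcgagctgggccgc
Creld2 (chr15:88819500-88819558, plus strand): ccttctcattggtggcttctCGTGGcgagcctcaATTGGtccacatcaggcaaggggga
Syvn1 (chr19:6046512-6046570, plus strand): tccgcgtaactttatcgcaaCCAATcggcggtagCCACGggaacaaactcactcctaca

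In Hspa5, which encodes BiP, the element ended 46 bases before the start site, and the distance lay between 25 bases in Syvn1 and 193 bases in Hsp90b1. The fixed parts were in the spelled order in Hspa5, Canx, Pdia6, Dnajc3, Syvn1 and 1 copy of Hsp90b1, and in reverse in Calr, Creld2 and the other copy of Hsp90b1. The second form of the element, ATTGG, 1 base and CCACG, was found in 12 of all promoters (0.0365%), and in those of Herpud1 and Dnajb11, where that of Dnajb11 lies after the start site and is not printed. TGACGTGG, a site bound by XBP1 and ATF6 whose reverse complement also begins with CCACG, was in 0 of 30 genes and in 222 promoters (0.676%). The ATF4 element, TGATG followed by any base, AA and any base, was in 4 of 30 genes (13.3%) and in 1299 promoters (3.95%), and the 4 genes were Herpud1, Trib3, Asns and Chac1. Capitals mark the fixed bases of these elements in the following lines, the first for the second form of the ER stress element and the others for the ATF4 element. The copy of Trib3 lies after its start site and is not printed.
Herpud1 (chr8:94386357-94386407, plus strand): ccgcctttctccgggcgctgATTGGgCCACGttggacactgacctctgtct
Chac1 (chr2:119351028-119351076, plus strand): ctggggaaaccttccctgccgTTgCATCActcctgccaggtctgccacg
Asns (chr6:7693210-7693252, minus strand): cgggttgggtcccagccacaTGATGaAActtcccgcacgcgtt
Herpud1 (chr8:94386296-94386344, plus strand): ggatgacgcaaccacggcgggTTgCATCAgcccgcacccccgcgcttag

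A match to letters is a description of the sequence and not of binding.

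The 35 genes together took a larger part of the RNA in tdTomato+GFP+ cells than in the other populations. Their summed level was 7323 and 7600 CPM in tdTomato+GFP+ libraries and 6115 and 6003 CPM in tdTomato-GFP+ libraries. In Thy1.1+ cells it was 5974 and 5819 CPM in tdTomato+ libraries and 5855 and 5732 CPM in tdTomato- libraries. The tdTomato+GFP+ libraries thus stood above the other 6, which covered 5732 to 6115 CPM. In sorted bulk cells, a larger number of cells with high levels and more RNA per cell cannot be told apart. For single genes, both tdTomato+GFP+ libraries were above the other 6 in 17 of 35 genes, where 19.3% of the 13989 tested genes showed this, and below them in 2, Dnajc3 and Dnajc10, where 15.5% of tested genes did. The highest population mean was that of tdTomato+GFP+ cells in 24 of 35 genes, and in 15 of these the next highest was that of tdTomato-GFP+ cells. The order of the means was not counted over all tested genes, so these 2 counts have no share to be read against. Libraries of 1 population differed little in these genes, by a median factor of 1.14 in tdTomato+GFP+, 1.12 in tdTomato-GFP+, 1.1 in tdTomato+Thy1.1+ and 1.06 in tdTomato-Thy1.1+ cells.

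**Figure D1:**
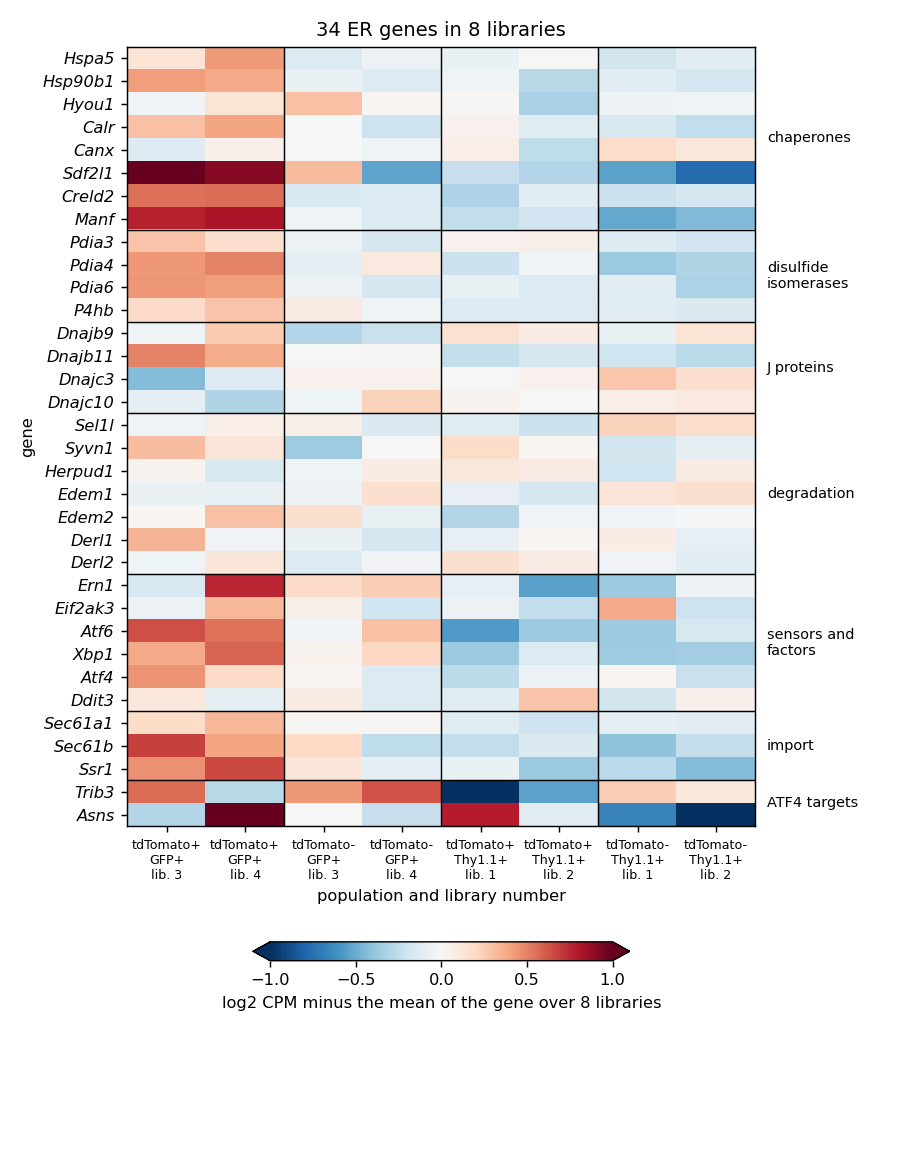
Level of 34 ER genes in each of 8 libraries, as log2 CPM minus the mean of the gene over all libraries (red above, blue below, colours end at 1 and -1). Rows are grouped by role and columns by population, and Chac1, which had reads in 2 libraries, is left out. The 2 columns of tdTomato+GFP+ cells are red for most chaperones, disulfide isomerases and import genes and mixed for the degradation genes, and Asns differs most between libraries of 1 population, tdTomato+GFP+, at 3.05 and 12.4 CPM.

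GFP+ cells were set against Thy1.1+ cells within the tdTomato+ label, which asks how labelled Foxp3-expressing cells of the toxin-sensitive allele differ from those of the other allele. In tdTomato+GFP+ cells, 14 of 35 genes were higher and 0 lower than in tdTomato+Thy1.1+ cells at an adjusted p under 0.05 in edgeR's quasi-likelihood test with Benjamini-Hochberg adjustment over all genes. Of all tested genes, 8.01% were higher and 6.82% were lower, 14.8% in all. The 14 were 5 of 8 chaperones, 3 of 4 disulfide isomerases, 1 of 4 J proteins, 2 of 6 sensors and factors and 3 of 3 import genes, with 0 of 7 degradation genes and 0 of 3 ATF4 targets. The median log2 fold change was 0.38 over the 35 genes and -0.0052 over all tested genes. GFP+ cells with the label were also set against GFP+ cells without it, which asks what sets labelled cells apart within 1 reporter. In tdTomato+GFP+ cells, 11 of 35 genes were higher and 0 lower than in tdTomato-GFP+ cells, where 6.24% of all tested genes were higher and 6.4% were lower, 12.6% in all. These were 6 of 8 chaperones, 3 of 4 disulfide isomerases, 1 of 4 J proteins and 1 of 3 import genes, with 0 of 6 sensors and factors, 0 of 7 degradation genes and 0 of 3 ATF4 targets. At an unadjusted p under 0.05, 3 of 6 sensors and factors passed here, and DESeq2 called 0 of them. Of all 13989 tested genes, 4058 passed at an unadjusted p under 0.05, and DESeq2 called 2974. The median log2 fold change in this comparison was 0.36 over the 35 genes and 0.03 over all tested genes. Both comparisons use the same tdTomato+GFP+ libraries, so their values are given side by side for each gene and are not independent of each other.

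**Figure D2:**
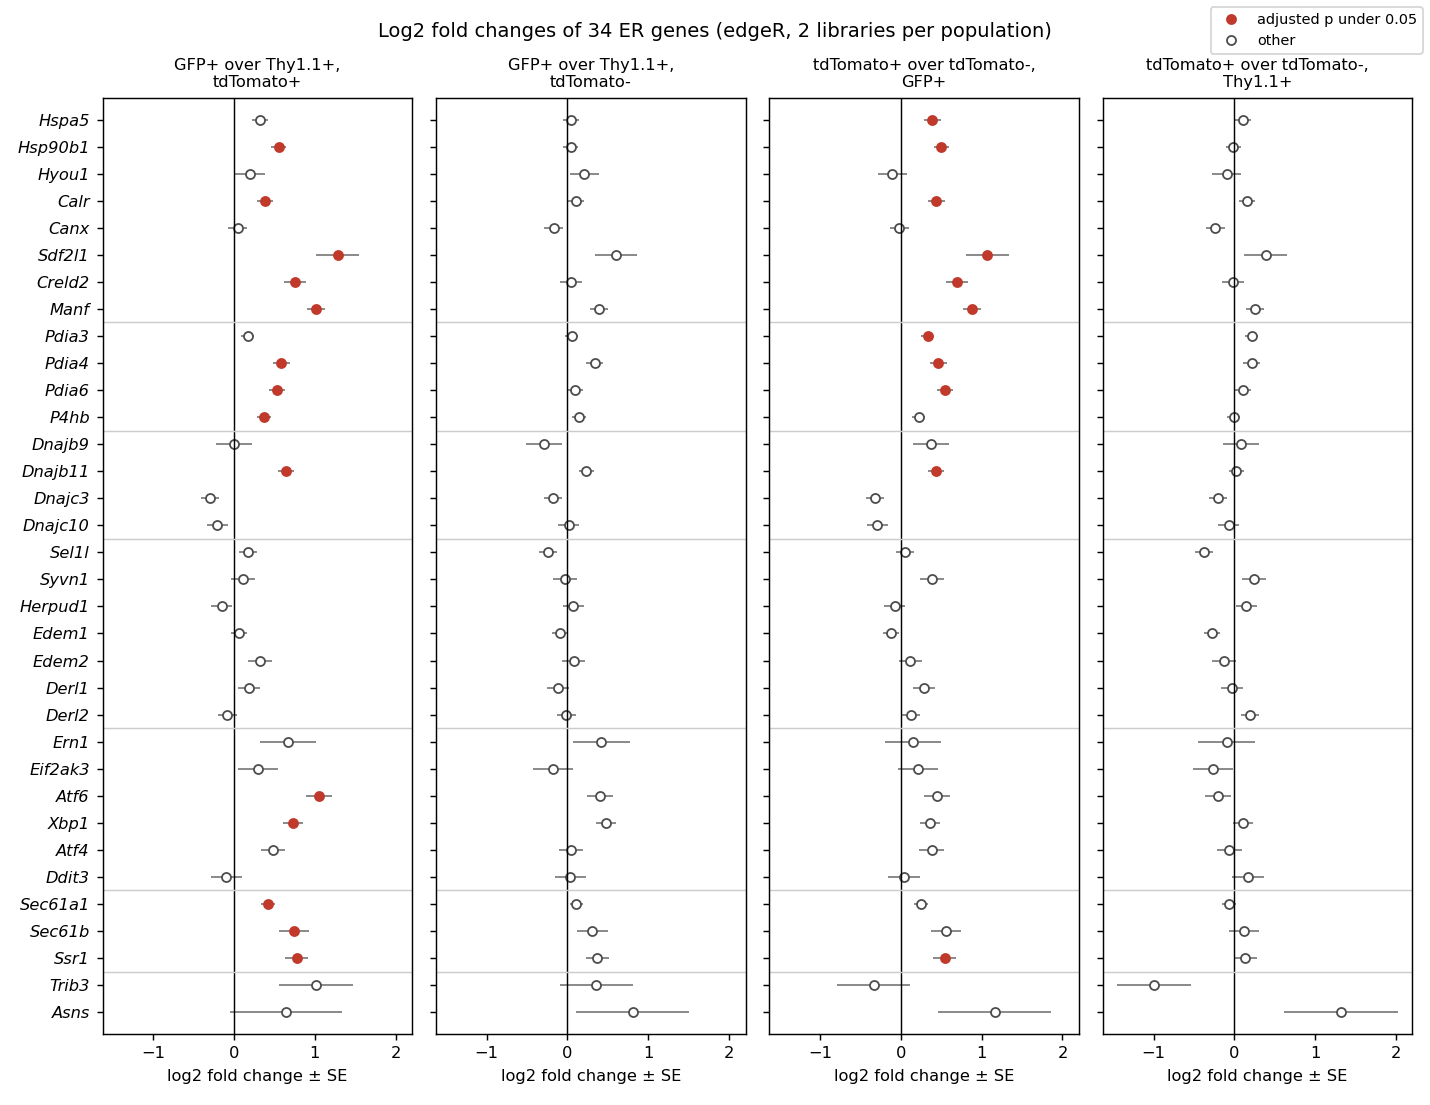
Log2 fold change of 34 ER genes in each of 4 comparisons (points) with its standard error (bars), from edgeR with 2 libraries per population. Filled red points passed an adjusted p of 0.05: 14 for GFP+ over Thy1.1+ among tdTomato+ cells, 11 for tdTomato+ over tdTomato- among GFP+ cells, and 0 in the panels for tdTomato- cells and for Thy1.1+ cells. Chac1 is left out.

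The first comparison rests on both tdTomato+Thy1.1+ libraries: without library 1 or without library 2 of that population, 3 of 35 genes were called, with the remaining library assumed to vary like the other groups. Calls over all genes fell in the same fits, to 481 and 524, against 2074 with all libraries. The second depends more on single libraries, since 2 genes were called without tdTomato+GFP+ library 3, 7 without tdTomato+GFP+ library 4, 1 without tdTomato-GFP+ library 4, 4 without any one of the Thy1.1+ libraries, and 1 where the 4 GFP+ libraries alone were fitted. Over all genes these fits called 969, 1801, 458, 952 to 1065 and 300 in the same order, against 1768 with all libraries. The numbers called in these fits hold both directions, and in some of them a gene of the 35 was called lower. Manf kept its call in both comparisons under all 16 alternatives, and no call was turned round by any of them.

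Other lists moved with the same libraries. A list of 20 cell cycle genes summed to 1632 and 1272 CPM in tdTomato+GFP+ libraries and to 789 and 582 CPM in tdTomato-GFP+ libraries, against 310 to 342 CPM in tdTomato+Thy1.1+ and 360 to 381 CPM in tdTomato-Thy1.1+ libraries. In the first comparison 19 of these 20 genes were higher, and in the second 10 of 20. Their part in the ER gene results was not tested. Plasma cell markers are given because this cell type is rich in ER chaperones: the list of 7 summed to 406 to 452 CPM in tdTomato+GFP+, 170 to 222 CPM in tdTomato-GFP+, 164 to 176 CPM in tdTomato+Thy1.1+ and 135 to 162 CPM in tdTomato-Thy1.1+ libraries. Nearly all of this came from Prdm1, at 34.1 to 277 CPM, and Txndc5, at 94.1 to 176 CPM, which T cells also express. The defining markers that could be read were at or near 0: Tnfrsf17 at 0 in all 8 libraries, Mzb1 at no more than 0.238 CPM, Jchain at no more than 0.812 CPM and Sdc1 at no more than 1.56 CPM. The immunoglobulin genes Ighm, Igkc, Ighg1 and Igha were not among the named genes and could not be read. tdTomato-GFP+ library 3 held 36.8 CPM of the dendritic cell gene Siglech and 34 CPM of H2-Aa, and tdTomato+GFP+ library 3 held 47.9 CPM of 5 erythroid genes. Leaving out these 2 libraries was a choice made after seeing the data. It leaves 1 library in each GFP+ population and takes the spread from the Thy1.1+ libraries alone. In that fit the median log2 fold change of the 35 genes was 0.45 in the first comparison and 0.33 in the second. Over all tested genes it was -0.02 and 0.0037. A list of 15 early response genes, which cell handling induces, summed to 3277 to 3403 CPM in tdTomato+GFP+ and to 2589 to 3129 CPM in the other libraries. Its genes did not move as 1 set. In the first comparison 6 log2 fold changes were above 0 and 9 below, with a median of -0.09, and 3 genes were called higher and 0 lower. In the second, 9 were above 0 and 6 below, with a median of 0.20, and 1 gene was called higher and 1 lower.

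Manf had the smallest adjusted p of the 35 genes in both comparisons. It encodes a secretion-prone ER protein that binds BiP and is itself a target of the unfolded protein response. Manf had 124 and 128 CPM in tdTomato+GFP+ libraries and 70.8 and 66.2 CPM in tdTomato-GFP+ libraries, and 61.4 and 63.8 CPM in tdTomato+Thy1.1+ libraries and 51.1 and 53.7 CPM in tdTomato-Thy1.1+ libraries. Both tdTomato+GFP+ libraries were well above the highest of the others, and the remaining libraries lay close together. The log2 fold change was 1.01 ± 0.11 (SE; edgeR adjusted p = 0.00208) over tdTomato+Thy1.1+ cells and 0.88 ± 0.11 (SE; edgeR adjusted p = 0.00381) over tdTomato-GFP+ cells. Of its exon bases, 9.25% overlap exons of neighbouring genes such as Rbm15b, at 43.8 to 58.2 CPM, from which reads of an unstranded kit cannot be told apart.

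Sdf2l1, which encodes a partner of the J protein ERdj3 that keeps substrates soluble, had the largest log2 fold change among the called genes. Levels were 77.7 and 66.7 CPM in tdTomato+GFP+ libraries and 44.1 and 24.6 CPM in tdTomato-GFP+ libraries. In Thy1.1+ cells they were 30.3 and 29.0 CPM with tdTomato and 24.5 and 20.9 CPM without. All other libraries were below both tdTomato+GFP+ libraries, but the tdTomato-GFP+ pair differed by a factor of 1.79. The gene was higher by 1.28 ± 0.27 (SE; edgeR adjusted p = 0.0177) than in tdTomato+Thy1.1+ cells and by 1.07 ± 0.26 (SE; edgeR adjusted p = 0.0374) than in tdTomato-GFP+ cells on the log2 scale. Creld2, a disulfide-rich chaperone of matrix and membrane proteins, had 69.6 and 70.0 CPM in tdTomato+GFP+ libraries and 42.8 and 43.3 CPM in tdTomato-GFP+ libraries, and 38.5 and 44.0 CPM in tdTomato+Thy1.1+ libraries and 41.0 and 42.3 CPM in tdTomato-Thy1.1+ libraries. Its tdTomato+GFP+ values were almost equal and the other 6 formed a narrow band beneath them. The log2 fold change was 0.76 ± 0.13 (SE; edgeR adjusted p = 0.0102) over tdTomato+Thy1.1+ cells and 0.70 ± 0.13 (SE; edgeR adjusted p = 0.0171) over tdTomato-GFP+ cells.

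Hspa5, the gene of BiP, was among the highest of the 35 genes per length and was called in 1 of the comparisons. It had 822 and 1002 CPM in tdTomato+GFP+ libraries and 677 and 715 CPM in tdTomato-GFP+ libraries. Its Thy1.1+ levels were 713 and 742 CPM in tdTomato+ and 655 and 693 CPM in tdTomato- libraries. Both tdTomato+GFP+ libraries were above the rest, and they differed from each other by a factor of 1.22. Over tdTomato-GFP+ cells the log2 fold change was 0.39 ± 0.10 (SE; edgeR adjusted p = 0.0432), and over tdTomato+Thy1.1+ cells it was 0.33 ± 0.10 (SE; edgeR adjusted p = 0.0684) and missed the threshold, which DESeq2 passed at an adjusted p of 0.032. The call over tdTomato-GFP+ cells ended with another scaling (RLE in place of TMM) and with no filter on low counts. Hsp90b1, which encodes endoplasmin, a chaperone of integrins and toll-like receptors, had 626 and 608 CPM in tdTomato+GFP+ libraries and 446 and 428 CPM in tdTomato-GFP+ libraries. The corresponding Thy1.1+ levels were 455 and 386 CPM with tdTomato and 436 and 414 CPM without it. The highest of the other 6 libraries, at 455 CPM, was below both tdTomato+GFP+ libraries. Log2 fold changes were 0.55 ± 0.09 (SE; edgeR adjusted p = 0.00912) over tdTomato+Thy1.1+ and 0.50 ± 0.09 (SE; edgeR adjusted p = 0.0164) over tdTomato-GFP+ cells. Of its exon bases, 15.7% overlap other genes, and the overlapping 1810014B01Rik was at 180 to 284 CPM and had a log2 fold change of 0.50 ± 0.10 in the first comparison, so reads may be shared.

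Calr, the gene of the calcium-binding lectin calreticulin, had 663 and 713 CPM in tdTomato+GFP+ libraries and 543 and 471 CPM in tdTomato-GFP+ libraries, and 557 and 498 CPM in tdTomato+Thy1.1+ libraries and 487 and 458 CPM in tdTomato-Thy1.1+ libraries. The tdTomato+GFP+ libraries were again highest, and the log2 fold changes were 0.38 ± 0.10 (SE; edgeR adjusted p = 0.0401) over tdTomato+Thy1.1+ and 0.44 ± 0.10 (SE; edgeR adjusted p = 0.0293) over tdTomato-GFP+ cells. Canx, the gene of the membrane-bound lectin calnexin that works beside calreticulin, was not called. It ranged from 325 to 439 CPM over all libraries and was highest in both tdTomato-Thy1.1+ libraries, while the other 3 populations overlapped, at log2 fold changes of 0.05 ± 0.12 and -0.02 ± 0.12 in these comparisons (adjusted p = 0.835 and 0.944). Hyou1, which encodes a large Hsp70 relative that exchanges the nucleotide of BiP, ranged from 29.0 to 44.4 CPM and was highest in tdTomato-GFP+ library 3. Its log2 fold change was 0.20 ± 0.18 over tdTomato+Thy1.1+ and -0.11 ± 0.18 over tdTomato-GFP+ cells (adjusted p = 0.522 and 0.758).

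**Figure D3:**
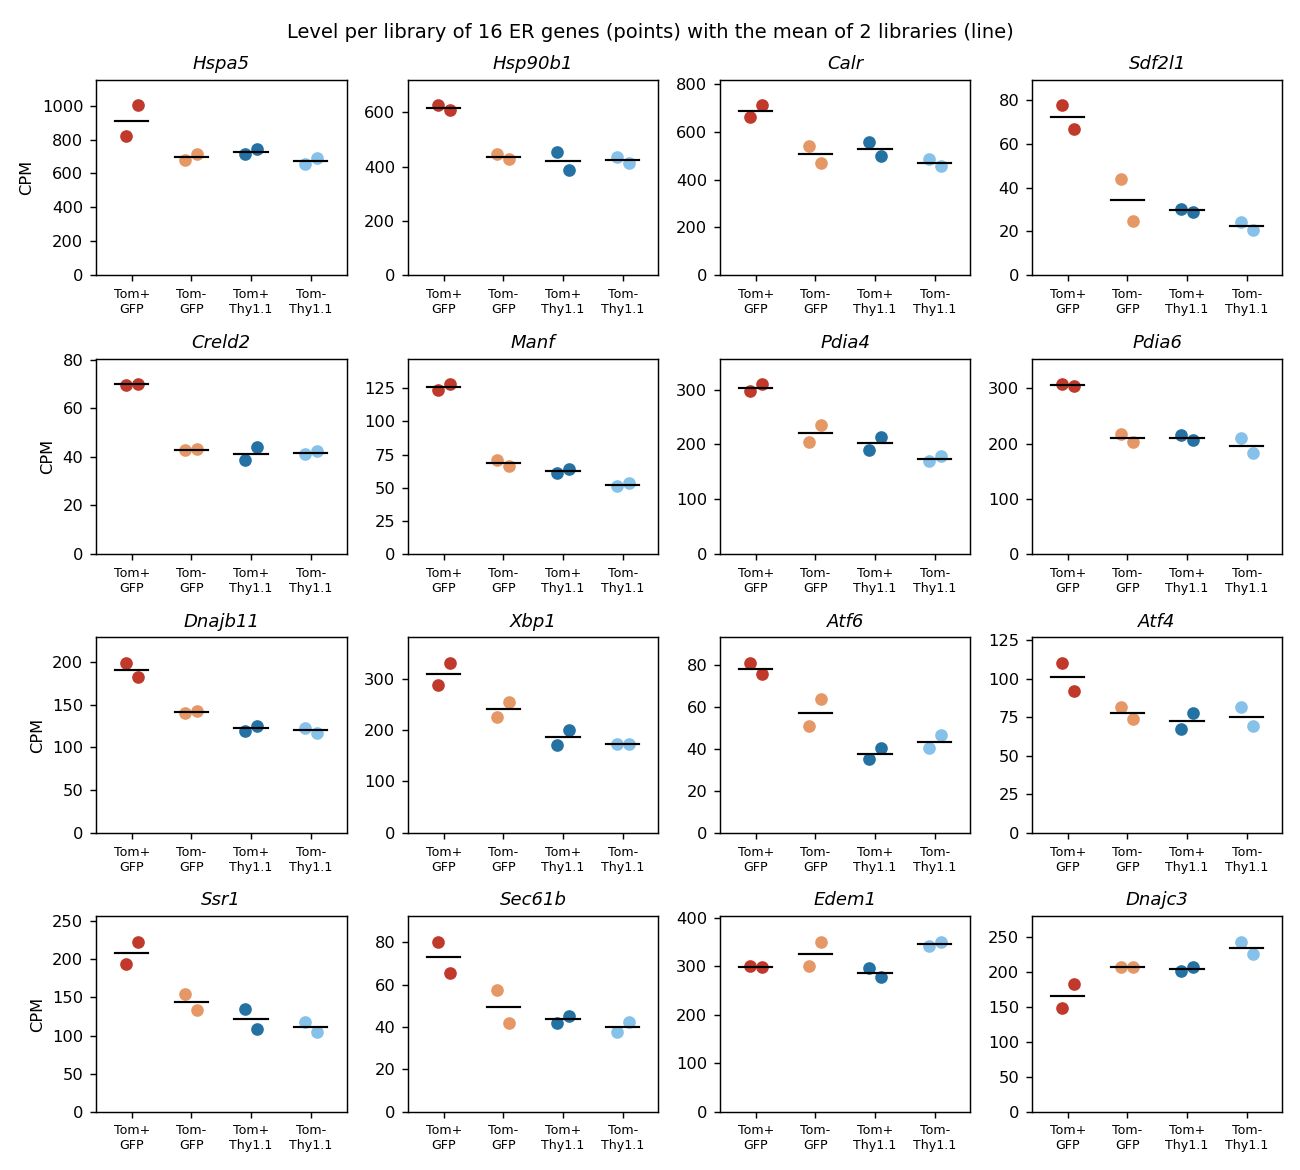
Level of 16 ER genes in each library (points, CPM, axes from 0) with the mean of the 2 libraries of a population (lines). Tom+ and Tom- stand for tdTomato+ and tdTomato-. Both tdTomato+GFP+ points lie above the other 6 in all panels but Edem1 and Dnajc3: for Manf at 124 and 128 CPM, against 51.1 to 70.8 CPM in the other libraries.

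The disulfide isomerases form and rearrange disulfide bonds in folding proteins. Pdia4 had 297 and 310.3 CPM in tdTomato+GFP+ libraries and 205 and 236 CPM in tdTomato-GFP+ libraries, against 189.9 and 214 CPM in tdTomato+Thy1.1+ libraries and 170.4 and 178 CPM in tdTomato-Thy1.1+ libraries. Pdia6 had 308 and 304 CPM in tdTomato+GFP+ libraries and 218 and 202 CPM in tdTomato-GFP+ libraries, against 215 and 207 CPM in tdTomato+Thy1.1+ libraries and 210.2 and 182 CPM in tdTomato-Thy1.1+ libraries. In both genes the tdTomato+GFP+ libraries were well above the others and close to each other. The log2 fold change over tdTomato+Thy1.1+ cells was 0.59 ± 0.11 (SE; edgeR adjusted p = 0.011) for Pdia4, and 0.54 ± 0.10 (SE; edgeR adjusted p = 0.0119) for Pdia6. Over tdTomato-GFP+ cells it was 0.46 ± 0.11 (SE; edgeR adjusted p = 0.0299) for Pdia4, and 0.54 ± 0.10 (SE; edgeR adjusted p = 0.0146) for Pdia6. Each of the other two isomerases was called in 1 of these comparisons. Pdia3, the isomerase that works with calnexin and calreticulin and loads MHC class I molecules, had 858 and 784 CPM in tdTomato+GFP+ libraries and 677 and 627 CPM in tdTomato-GFP+ libraries. In Thy1.1+ cells it was at 726 and 734 CPM with the label and 641 and 617 CPM without. Both tdTomato+GFP+ libraries were above the other 6, and the log2 fold change was 0.33 ± 0.08 (SE; edgeR adjusted p = 0.032) over tdTomato-GFP+ cells and 0.17 ± 0.08 (SE; edgeR adjusted p = 0.192) over tdTomato+Thy1.1+ cells. P4hb, which encodes the founding isomerase of the family, had 363 and 389 CPM in tdTomato+GFP+ libraries and 337 and 309 CPM in tdTomato-GFP+ libraries. Its levels were 291 and 289.9 CPM in tdTomato+Thy1.1+ and 296 and 289 CPM in tdTomato-Thy1.1+ libraries. Both tdTomato+GFP+ libraries were highest. P4hb was higher by 0.37 ± 0.08 (SE; edgeR adjusted p = 0.0246) than in tdTomato+Thy1.1+ cells, and the log2 difference from tdTomato-GFP+ cells was 0.22 ± 0.08 (SE; edgeR adjusted p = 0.132).

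The J proteins steer BiP to its substrates, and 1 of the 4 in the list was called. Dnajb11, the soluble ER protein ERdj3 that hands unfolded proteins to BiP, had 199 and 182 CPM in tdTomato+GFP+ libraries and 140.3 and 142 CPM in tdTomato-GFP+ libraries. It had 119 and 125 CPM in tdTomato+Thy1.1+ libraries and 123 and 117 CPM in tdTomato-Thy1.1+ libraries. Both tdTomato+GFP+ libraries were clearly highest, at a log2 fold change of 0.64 ± 0.10 (SE; edgeR adjusted p = 0.00614) over tdTomato+Thy1.1+ cells and 0.43 ± 0.10 (SE; edgeR adjusted p = 0.0288) over tdTomato-GFP+ cells. Dnajc3, a co-chaperone that also restrains PERK, was not called. It had 148 and 183 CPM in tdTomato+GFP+ libraries and 206 and 206 CPM in tdTomato-GFP+ libraries, and 200.4 and 206 CPM in tdTomato+Thy1.1+ libraries and 243 and 225 CPM in tdTomato-Thy1.1+ libraries, so that both tdTomato+GFP+ libraries were below the rest. Its log2 fold changes of -0.30 ± 0.12 (SE; edgeR adjusted p = 0.128) over tdTomato+Thy1.1+ and -0.32 ± 0.12 (SE; edgeR adjusted p = 0.112) over tdTomato-GFP+ cells missed the threshold, and DESeq2 put the second at an adjusted p of 0.0445. Dnajc10, a J protein with isomerase domains that reduces disulfides for degradation, ranged from 82.7 to 119.7 CPM, with log2 fold changes of -0.21 ± 0.13 and -0.29 ± 0.13 (adjusted p = 0.341 and 0.186). Dnajb9, or ERdj4, which returns BiP to IRE1 and is a classical XBP1 target, was at 13.6 to 20.04 CPM, with both tdTomato-GFP+ libraries below the other 6 and the other 3 populations overlapping. Its log2 fold change was 0.00 ± 0.22 over tdTomato+Thy1.1+ and 0.38 ± 0.22 over tdTomato-GFP+ cells (adjusted p = 0.997 and 0.302).

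Import genes were called in all 3 cases among tdTomato+ cells. Ssr1 encodes a subunit of the translocon-associated complex that helps signal sequences enter the channel. It had 194 and 223 CPM in tdTomato+GFP+ libraries and 154 and 133 CPM in tdTomato-GFP+ libraries, and 135 and 109 CPM in tdTomato+Thy1.1+ libraries and 117 and 105 CPM in tdTomato-Thy1.1+ libraries. The tdTomato+GFP+ libraries were highest, and the log2 fold change was 0.78 ± 0.14 (SE; edgeR adjusted p = 0.012) over tdTomato+Thy1.1+ and 0.54 ± 0.14 (SE; edgeR adjusted p = 0.0467) over tdTomato-GFP+ cells. The call of Ssr1 over tdTomato-GFP+ cells ended with RLE scaling, with library totals and with no filter on low counts. Sec61a1 encodes the pore of the Sec61 channel. Its levels were 343 and 379.8 CPM in tdTomato+GFP+ libraries and 305 and 304 CPM in tdTomato-GFP+ libraries, and 278 and 262 CPM in tdTomato+Thy1.1+ libraries and 285 and 279 CPM in tdTomato-Thy1.1+ libraries. The 4 GFP+ libraries were above the 4 Thy1.1+ libraries, by 0.42 ± 0.09 (SE; edgeR adjusted p = 0.0173) on the log2 scale among tdTomato+ cells, while the difference between tdTomato+GFP+ and tdTomato-GFP+ cells was 0.25 ± 0.09 (SE; edgeR adjusted p = 0.103). Sec61b, the gene of the small beta subunit, had 80.2 and 65.5 CPM in tdTomato+GFP+ libraries and 57.4 and 41.7 CPM in tdTomato-GFP+ libraries, and 42.1 and 45.0 CPM in tdTomato+Thy1.1+ libraries and 37.8 and 42.3 CPM in tdTomato-Thy1.1+ libraries. Its tdTomato+GFP+ libraries were above the others but differed from each other, at a log2 fold change of 0.74 ± 0.19 (SE; edgeR adjusted p = 0.0362) over tdTomato+Thy1.1+ and 0.56 ± 0.19 (SE; edgeR adjusted p = 0.0949) over tdTomato-GFP+ cells. Sec61b has a near-identical copy in the genome, Gm10320, with no row of its own in the table, so its counts are uncertain.

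Of the sensors and factors, Atf6 and Xbp1 were higher in tdTomato+GFP+ cells than in tdTomato+Thy1.1+ cells. Atf6, which encodes the membrane-tethered sensor, had 81.2 and 75.7 CPM in tdTomato+GFP+ libraries and 51.0 and 63.8 CPM in tdTomato-GFP+ libraries, against 35.2 and 40.5 CPM in tdTomato+Thy1.1+ libraries and 40.5 and 46.5 CPM in tdTomato-Thy1.1+ libraries. Xbp1, the factor whose mRNA IRE1 splices, had 287 and 330.4 CPM in tdTomato+GFP+ libraries and 226 and 255 CPM in tdTomato-GFP+ libraries, against 171 and 201 CPM in tdTomato+Thy1.1+ libraries and 172 and 173 CPM in tdTomato-Thy1.1+ libraries. Both genes were also above the Thy1.1+ libraries in tdTomato-GFP+ cells, so that the GFP+ and Thy1.1+ libraries did not overlap. Their log2 fold changes in tdTomato+ cells were 1.05 ± 0.16 (SE; edgeR adjusted p = 0.00645) for Atf6, and 0.73 ± 0.12 (SE; edgeR adjusted p = 0.00777) for Xbp1. Over tdTomato-GFP+ cells they were 0.45 ± 0.16 (SE; edgeR adjusted p = 0.111) for Atf6, and 0.36 ± 0.12 (SE; edgeR adjusted p = 0.0878) for Xbp1. Counts per gene do not separate spliced from unspliced Xbp1 mRNA or cut from uncut ATF6, so they do not show whether either pathway was active. Atf4, the factor made when PERK or other kinases phosphorylate eIF2, had 110.1 and 92.1 CPM in tdTomato+GFP+ libraries and 81.9 and 73.5 CPM in tdTomato-GFP+ libraries, and 67.1 and 77.4 CPM in tdTomato+Thy1.1+ libraries and 81.8 and 69.0 CPM in tdTomato-Thy1.1+ libraries. Both tdTomato+GFP+ libraries were highest, but the log2 fold changes of 0.48 ± 0.15 (SE; edgeR adjusted p = 0.0689) over tdTomato+Thy1.1+ and 0.38 ± 0.15 (SE; edgeR adjusted p = 0.139) over tdTomato-GFP+ cells missed the threshold. DESeq2 put the difference from tdTomato+Thy1.1+ cells at an adjusted p of 0.0347.

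The other sensors were low and were not called. Ern1, the gene of IRE1, was at 8.5 to 20.98 CPM, with its highest value in tdTomato+GFP+ library 4 and 11.2 CPM in library 3 of that population. Eif2ak3, the gene of PERK, was at 23.4 to 36.1 CPM, with tdTomato+GFP+ libraries at 26.7 and 34.9 CPM, inside the range of the tdTomato- libraries. Ddit3, the gene of the pro-apoptotic factor CHOP that ATF4 induces, was at 31.4 to 43.6 CPM. Its groups overlapped too, and 10.9% of its exon bases are shared with other gene models. Log2 fold changes over tdTomato+Thy1.1+ cells were 0.67 ± 0.35 for Ern1, 0.30 ± 0.25 for Eif2ak3 and -0.09 ± 0.20 for Ddit3 (adjusted p = 0.247, 0.477 and 0.805). Over tdTomato-GFP+ cells they were 0.15 ± 0.35, 0.21 ± 0.25 and 0.04 ± 0.20 for the same genes, at adjusted p = 0.824, 0.628 and 0.927.

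The 7 degradation genes, which recognise misfolded glycoproteins and pass them through the membrane to the proteasome, were called in neither comparison. Their sum was 1084 and 1045 CPM in tdTomato+GFP+ libraries and 998 and 1031 CPM in tdTomato-GFP+ libraries, against 1002 and 989 CPM in tdTomato+Thy1.1+ and 1061 and 1067 CPM in tdTomato-Thy1.1+ libraries. In this sum the tdTomato+GFP+ libraries were above the tdTomato-GFP+ and tdTomato+Thy1.1+ libraries and overlapped the tdTomato-Thy1.1+ libraries. Log2 fold changes over tdTomato+Thy1.1+ cells reached from -0.15 ± 0.13 for Herpud1, a scaffold of the degradation complex, to 0.32 ± 0.15 for Edem2, which trims mannose from misfolded glycoproteins. Those of Sel1l and Syvn1, the adaptor and the ubiquitin ligase at the centre of the complex, were 0.18 ± 0.11 and 0.11 ± 0.15. Edem1, a mannosidase relative of Edem2, and the membrane proteins Derl1 and Derl2 had 0.06 ± 0.10, 0.19 ± 0.14 and -0.08 ± 0.11. Over tdTomato-GFP+ cells the 7 log2 fold changes lay between -0.12 ± 0.10 for Edem1 and 0.39 ± 0.15 for Syvn1. Syvn1 and Derl1 were the nearest to a call there, at adjusted p = 0.134 and 0.22. The test passed 0 of 7 in each of these comparisons, and at an unadjusted p under 0.05 it passed 0 over tdTomato+Thy1.1+ and 1 over tdTomato-GFP+ cells, while DESeq2 called 0 in each. Of all 13989 tested genes, 4181 and 4058 had an unadjusted p under 0.05 in the same order. Misses of the threshold with 2 libraries do not show that the levels are equal.

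The 3 ATF4 targets were called in neither comparison. Asns, the asparagine synthetase gene, had 3.05 and 12.4 CPM in tdTomato+GFP+ libraries and 3.74 and 3.17 CPM in tdTomato-GFP+ libraries, and 6.42 and 3.45 CPM in tdTomato+Thy1.1+ libraries and 2.35 and 1.59 CPM in tdTomato-Thy1.1+ libraries. Trib3, a pseudokinase that feeds back on ATF4, had 7.4 and 4.14 CPM in tdTomato+GFP+ libraries and 6.79 and 7.79 CPM in tdTomato-GFP+ libraries, and 2.23 and 3.47 CPM in tdTomato+Thy1.1+ libraries and 5.97 and 5.42 CPM in tdTomato-Thy1.1+ libraries. In Asns the tdTomato+GFP+ libraries lay on either side of the tdTomato-GFP+ values, and in Trib3 they overlapped the range of the tdTomato- libraries. Their log2 fold changes were 0.65 ± 0.69 for Asns and 1.02 ± 0.46 for Trib3 over tdTomato+Thy1.1+ cells (adjusted p = 0.592 and 0.18), and 1.16 ± 0.70 and -0.34 ± 0.45 over tdTomato-GFP+ cells (adjusted p = 0.315 and 0.68). Chac1, a glutathione-degrading enzyme, had 24 counts in tdTomato+GFP+ library 3, 24 counts in tdTomato-Thy1.1+ library 2 and 0 in the other 6, so no fold change is given. Of the 3 genes, 0 had an unadjusted p under 0.05 in either comparison, and DESeq2 called 0.

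Without the tdTomato label, or within the Thy1.1 reporter, 0 of 35 genes passed the test. For tdTomato-GFP+ over tdTomato-Thy1.1+ cells, 0.164% of all tested genes were called in either direction and 0.0643% were higher. Of all 13989 tested genes, 1662 had an unadjusted p under 0.05, and DESeq2 called 581. Among the 35 genes 6 had an unadjusted p under 0.05, and DESeq2 called 1, Xbp1, at a log2 fold change of 0.48 with an adjusted p of 0.0125. The edgeR values nearest to a call were 0.48 ± 0.12 (SE; edgeR adjusted p = 0.178) for Xbp1 and 0.39 ± 0.11 (SE; edgeR adjusted p = 0.221) for Manf. For tdTomato+Thy1.1+ over tdTomato-Thy1.1+ cells, 0 of all tested genes were called (0%), 1063 had an unadjusted p under 0.05 and DESeq2 called 148. Of the 35 genes, 4 had an unadjusted p under 0.05 and DESeq2 called 0. The lowest adjusted p there was that of Sel1l, at -0.37 ± 0.11 (SE; edgeR adjusted p = 0.555). The median log2 fold change of the 35 genes was 0.07 for GFP+ over Thy1.1+ cells without the label and -0.0094 for tdTomato+ over tdTomato- cells with Thy1.1.

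Whether the label acted differently with each reporter was tested by the interaction term, which passed 0 of 35 genes, against 0.443% of all tested genes in either direction and 0.0929% with a higher value. Of all 13989 tested genes, 1792 had an unadjusted p under 0.05 here, and DESeq2 called 568. Among the 35 genes 9 had an unadjusted p under 0.05, and DESeq2 called 2, Hsp90b1 at 0.48 (adjusted p = 0.035) and Manf at 0.60 (adjusted p = 0.0416). The 9 include Chac1, which rests on 24 counts in each of 2 libraries. In edgeR the interaction was 0.62 ± 0.15 (SE; edgeR adjusted p = 0.166) for Manf, 0.51 ± 0.13 (SE; edgeR adjusted p = 0.185) for Hsp90b1 and 0.71 ± 0.19 (SE; edgeR adjusted p = 0.191) for Creld2 on the log2 scale. A difference between the reporters in the effect of the label is therefore not shown for any of these genes by the edgeR test. A test for any difference among the 4 populations passed 15 of 35 genes, where 16.1% of all tested genes passed.

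Per length, as CPM per kilobase of exon, the list spans a wide range of levels. The highest medians over the 8 libraries were 223 for Pdia3, 181 for Calr and 169 for Hspa5, and the lowest with reads in every library were 1.45 for Ern1 and 1.21 for Asns. Called genes stood at high and low levels: Hsp90b1 had a median of 109 and Pdia4 of 87.4 CPM per kilobase, while Manf had 18.4, Sdf2l1 26.7 and Atf6 5.28. Of the 8 genes with the ER stress response element, 4 were called higher over tdTomato+Thy1.1+ cells and 5 over tdTomato-GFP+ cells. Of the 22 genes without a match to it in the bases searched, 7 and 5 were. These 22 include Dnajb11 and Herpud1, which carry the second form. The 5 genes without a promoter sequence, among them Manf, Atf6 and Sec61a1, are in neither count. Canx, Dnajc3 and Syvn1 carry the element and were called in neither comparison.

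Another 126 tested genes of the same pathways, listed by role, held 17 that were higher and 2 that were lower over tdTomato+Thy1.1+ cells, and 16 and 3 over tdTomato-GFP+ cells. That is 15.1% in each comparison in either direction, where 14.8% and 12.6% of all tested genes were called. By direction, 8.01% and 6.24% of all tested genes were higher, and 6.82% and 6.4% were lower. Of the 126 log2 fold changes, 90 were above 0 over tdTomato+Thy1.1+ cells and 91 over tdTomato-GFP+ cells. Their medians were 0.22 and 0.22, against -0.0052 and 0.03 over all tested genes. By list, 25.9% and 25.9% of import and glycosylation genes were called, 17.9% and 14.3% of folding genes, 8.7% and 4.35% of degradation genes, 10.3% and 10.3% of factors, 10% and 20% of ATF4 targets, and 4.76% and 0% of heat shock genes. Values in what follows are log2 fold changes with their SE, and all those given have an edgeR adjusted p of 0.0495 or lower. Import and glycosylation had the largest count, with 6 of 27 genes higher and 1 lower over tdTomato+Thy1.1+, and 5 higher and 2 lower over tdTomato-GFP+ cells. The signal peptidase subunit genes Spcs1 and Spcs2 were higher by 0.92 ± 0.16 and 0.54 ± 0.10 than in tdTomato+Thy1.1+ cells on the log2 scale, the translocon-associated Ssr2 by 0.77 ± 0.15, and Krtcap2, of the oligosaccharyltransferase, by 0.78 ± 0.14. Stt3b, a catalytic subunit of that transferase, had 138 and 134 CPM in tdTomato+GFP+ libraries, against 194 and 229 CPM in tdTomato-GFP+ libraries, a log2 fold change of -0.64 ± 0.11. It was also the gene that was lower over tdTomato+Thy1.1+ cells, at -0.58 ± 0.11, and the other lower one over tdTomato-GFP+ cells was Sec63, a partner of the channel, at -0.47 ± 0.11. The signal peptidase gene Sec11c was higher there by 0.79 ± 0.12 and the transferase subunit gene Ddost by 0.50 ± 0.10. For folding genes outside the list, 4 of 28 were higher and 1 lower over tdTomato+Thy1.1+ cells, and 4 and 0 over tdTomato-GFP+ cells. These included the prolyl isomerase genes Ppib (0.69 ± 0.15) and Fkbp2 (1.06 ± 0.26) over tdTomato+Thy1.1+ cells and the cargo receptor gene Lman1 (1.02 ± 0.18) over tdTomato-GFP+ cells. The lower one was Sil1, a nucleotide exchange factor of BiP, at -0.55 ± 0.15 over tdTomato+Thy1.1+ cells. Degradation genes outside the list gave 2 of 23 higher over tdTomato+Thy1.1+, Ube2g2 and the ATPase gene Vcp, and 1, Vimp, over tdTomato-GFP+ cells, with 0 lower in each. Their log2 fold changes were 0.69 ± 0.12, 0.43 ± 0.09 and 0.48 ± 0.11.

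Among 29 further factors and regulators, 3 were higher and 0 lower in each comparison. Over tdTomato+Thy1.1+ cells these were the eIF2 phosphatase subunit gene Ppp1r15b (0.77 ± 0.14), the eIF2 exchange factor gene Eif2b5 (0.57 ± 0.14) and Nfyb (0.58 ± 0.16), a subunit of the factor that binds CCAAT. Over tdTomato-GFP+ cells they were Map3k5 (0.44 ± 0.10), a kinase gene downstream of IRE1, Tmbim6 (0.37 ± 0.09), an ER membrane inhibitor of cell death, and Cebpb, a transcription factor gene. Cebpb had 41.9 and 42.1 CPM in tdTomato+GFP+ libraries against 10.5 and 10.9 CPM in tdTomato-GFP+ libraries (1.97 ± 0.22). In Thy1.1+ cells it had 32.1 and 38.3 CPM with tdTomato and 23.5 and 17.0 CPM without. Its tdTomato-GFP+ libraries were thus the lowest. Map3k5 had 155 and 160 CPM in tdTomato+GFP+ libraries and 157 and 144 CPM in tdTomato+Thy1.1+ libraries. Of 20 further ATF4 targets, 2 were higher and 0 lower over tdTomato+Thy1.1+ cells, Eif4ebp1 (1.29 ± 0.21), an inhibitor of cap-dependent translation, and Psat1 (0.87 ± 0.21), of serine synthesis. Over tdTomato-GFP+ cells 3 were higher, Eif4ebp1 (1.05 ± 0.21), Slc1a5 (0.40 ± 0.10) and Slc3a2 (0.44 ± 0.12), and the amino acid transporter gene Slc7a5, the partner of Slc3a2, was lower (-0.57 ± 0.13). Slc7a5 was also lower with the label in Thy1.1+ cells, at 52.8 and 55.1 CPM against 75.7 and 67.7 CPM, without a call. The heat shock genes of the cytosol and mitochondria, which answer to HSF1 and not to the ER sensors, gave 1 of 21 higher over tdTomato+Thy1.1+ cells, Hspd1 (0.44 ± 0.11), and 0 over tdTomato-GFP+ cells, with 0 lower in each.

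**Figure D4:**
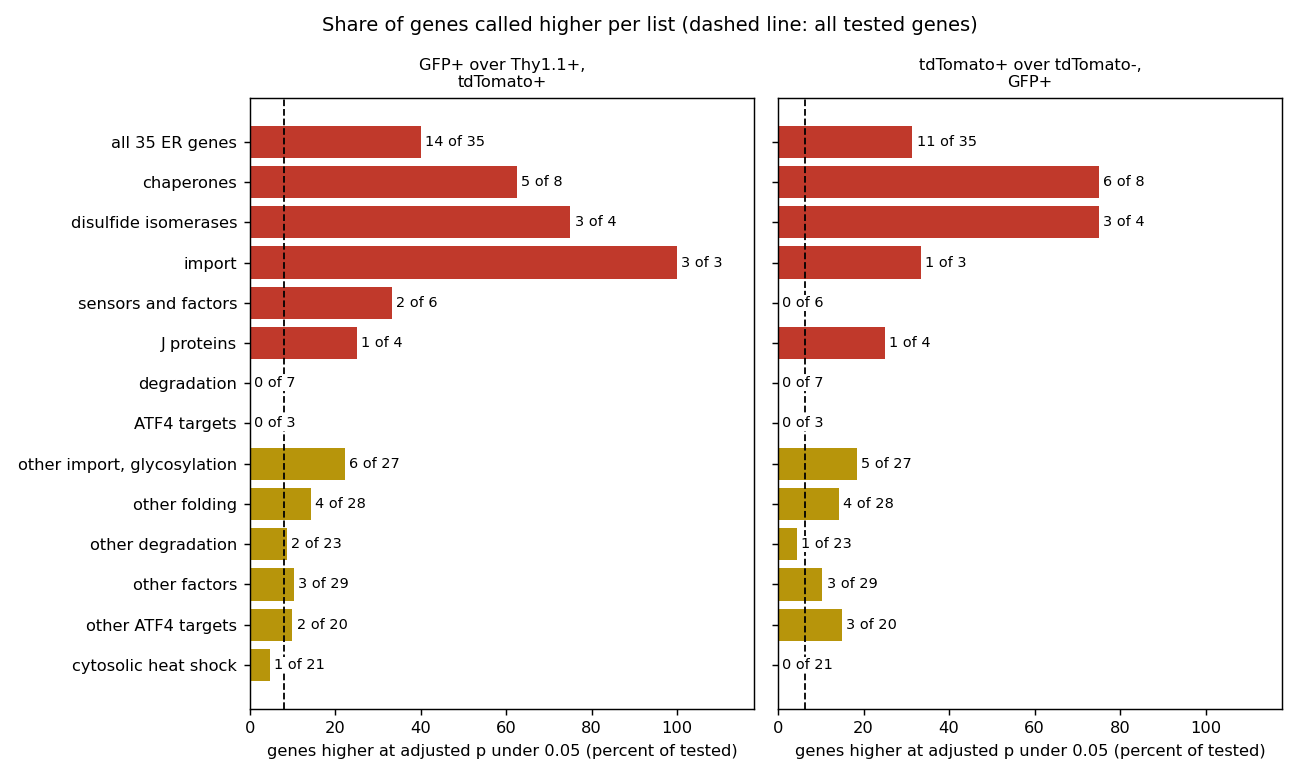
Share of tested genes called higher at an adjusted p under 0.05 (bars, with counts beside them) for the 35 ER genes, their roles (red) and other lists (ochre), in tdTomato+GFP+ over tdTomato+Thy1.1+ cells (left) and over tdTomato-GFP+ cells (right). The dashed lines mark all tested genes, at 8.01% and 6.24%. The bars of chaperones and disulfide isomerases, 5 of 8 and 3 of 4 on the left, pass the line in both panels, and those of the 7 degradation genes and 3 ATF4 targets are at 0.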

How the data were processed

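RNA of 4 sorted populations with 2 libraries each was amplified over 12 cycles with SMART-Seq v4, and KAPA libraries were made with 8 PCR cycles and read as paired ends, per the labels' protocols. Strand is not kept by this kit. The authors deposited 1 table of raw counts per gene that had not been normalized, per the file headers and values. Aligner, counting tool, gene models and genome build were not given in the sources used here, and DESeq is the tool named in the submitters' processing notes, without a version. Of 24116 rows, 8 without a gene name, with 0.0215% to 0.0264% of the counts of a library, were left out. GFP+ libraries carry the numbers 3 and 4 in the table and 1 and 2 in the titles, so each was tied to its population alone and keeps the number of the table.

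Tests used R 4.3.3 and edgeR 4.0.16 (quasi-likelihood, robust dispersion) on counts, with limma 3.58.1 loaded, TMM scaling (factors from 0.978 to 1.02), edgeR's expression filter at a minimum count of 10 (13989 genes kept) and 1 mean per population over all 8 libraries. This left 4 residual degrees of freedom. The Benjamini-Hochberg adjustment ran over all tested genes with a threshold of 0.05, and standard errors come from the F statistic. DESeq2 1.42.0 was an alternative, beside other scalings, other filters, a replicate block, fits of the 4 libraries compared and leaving out each library. The scripts were tested on simulated data. Each pair of libraries from 1 population had r of 0.968 to 0.986 over genes (log2 CPM), and the counts differed by more than counting noise, with chi-square values of 37.7 to 80.2 per degree of freedom. Nothing in the labels ties these libraries to separate animals, and the p-values therefore measure their spread, which may be technical. For counting error only, a gene at 0 counts may hold up to 3, which is 0.0626 to 0.0788 CPM.

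Exon lengths and overlaps came from the GENCODE annotation, and promoters from RefSeq. A near-identical copy was a match of at least 97% identity over at least 100 bases and 10% of the exons. All 35 genes are named. Those past the threshold in any test are given in all 8 libraries, as are Atf4, Dnajc3, Asns and Trib3, chosen after their values were seen, and the others by range. Sec63, Sil1 and 1 value of Stt3b were also chosen after their values were seen. From each further list, up to 4 genes with the smallest adjusted p per comparison could be named. The genes and lists were chosen with earlier results of these data known. Protein sequences were not used here.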

Additional observations from a re-analysis of the deposited data

How the results depend on the processing

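The number of the 35 genes called for tdTomato+GFP+ over tdTomato+Thy1.1+ cells was 14, and it was 11 to 16 under other scalings, other filters, DESeq2, the replicate block or a fit of 4 libraries. Leaving out 1 library gave 3 to 14. For tdTomato+GFP+ over tdTomato-GFP+ cells the number was 11. It was 8 to 12 under other scalings, filters, DESeq2 and the replicate block, 1 with the 4 GFP+ libraries alone, 6 without library 3 of both GFP+ populations (added after seeing the data, with 1 library left on each side), and 1 to 8 with 1 library left out. Calls over all genes were also fewer with the 4 GFP+ libraries alone and in most fits with 1 library left out. A fit of the 4 tdTomato+ libraries called 11 of the 35 genes over tdTomato+Thy1.1+ cells. Over all genes it called 1546, against 2074 with all libraries. Fits of 4 libraries and fits with 1 library left out leave fewer residual degrees of freedom. The cause of the losses was not tested. With library totals as the scaling, Calr, P4hb and Sec61b lost their call over tdTomato+Thy1.1+ cells, and Pdia3 and Ssr1 over tdTomato-GFP+ cells. Over tdTomato-GFP+ cells, Hspa5 and Ssr1 lost theirs with RLE scaling, and Hspa5, Pdia3 and Ssr1 with no filter. DESeq2 called 1 gene where edgeR called 0 for tdTomato-GFP+ over tdTomato-Thy1.1+ cells, and 2 where edgeR called 0 for the interaction. Over all genes DESeq2 called 581 and 568 there, and edgeR 23 and 62. Any difference among the populations was called for 15 genes, and for 3 to 14 with 1 library left out. All these counts hold calls in either direction. Over tdTomato-GFP+ cells DESeq2 called 11 of the 35 genes higher and 1 lower. No called fold change was reversed under any of these alternatives. Over single genes, 2489 alternatives left the call and the sign of the fold change as they were, 124 ended a call and 15 added one. In 123 a fold change that was not called changed its sign. The counts and medians of the list are not part of this tally.

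Nothing in the labels says that replicate numbers pair the libraries. For the replicate block, the lower-numbered library of each population (3 in GFP+, 1 in Thy1.1+) was set beside the others of its kind. Over all genes, deviations from the population means matched in this way correlated by 0.0325 to 0.056 between populations, although single genes differed in 1 direction in all 4, such as Eif2ak2, at 18.9 to 29.5 CPM in the lower-numbered and 51.5 to 57.5 CPM in the higher-numbered libraries. With the replicate number as a block, 15 and 12 genes were called in the comparisons that called 14 and 11, and 0 in the comparisons without the label or within Thy1.1. The 2 libraries per population limit the precision of every gene, and depth limits Chac1, which had 24 counts in each of 2 libraries and 0 in the others.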
